A study of Mus musculus with 24 samples.

Results

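The genes of the mouse major histocompatibility complex (MHC, named H2 in the mouse) and of antigen presentation were followed through 4 liver genotypes. The members were every identifier that begins with H2-, plus B2m, Cd74, Ciita, Tap1, Tap2, Tapbp, Psmb8, Psmb9 and Psmb10. This gave 52 members of 24319 genes in the whole-liver table and 52 of 24319 in the hepatocyte table, and 49 identifiers were the same in both. Of the 52, 33 were class I genes (B2m among them), 12 were class II genes, 6 were processing genes, and 1, H2-Ke6, carries an H2 name without a known part in presentation. H2-Q6, H2-Q7 and H2-T22 stood alone in the hepatocyte table and were joined with a neighbouring copy in the liver table (H2-Q6,H2-Q8, H2-Q7,H2-Q9 and H2-T22,H2-T9).

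MHC class I molecules show peptides from inside the cell to CD8 T cells and are made by nearly all nucleated cells, hepatocytes included. Each is a heavy chain (H2-K1, H2-D1 and H2-L are the classical ones) paired with beta-2-microglobulin, the product of B2m. Its peptides are cut by proteasomes, into which Psmb8, Psmb9 and Psmb10 can be built in place of constitutive subunits to form the immunoproteasome. The peptides are then carried into the endoplasmic reticulum by the transporter of Tap1 and Tap2, and loaded with the help of tapasin (Tapbp). MHC class II molecules show peptides from outside the cell to CD4 T cells and in the liver are chiefly found on dendritic cells, B cells, macrophages and some endothelial cells. The class II chains (H2-Aa, H2-Ab1, H2-Eb1) travel with the invariant chain Cd74, exchange their peptide with the help of H2-DM, and depend on the coactivator Ciita for transcription. Interferon-gamma is a strong inducer of all 3 groups of genes.

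The mice were males of 2 months. PolyA RNA was taken from their whole liver (12 samples) or from hepatocytes isolated from it (12 samples), with 3 biological replicates in each of 8 groups. The genotypes were WT (C57/BL6), IkkB KO (Alb-Cre+;IkkBf/f), Shp2 KO (Alb-Cre+;Shp2f/f) and Double KO (Alb-Cre+;IkkBf/f;Shp2f/f). IkkB (gene Ikbkb) phosphorylates the inhibitors that hold NF-κB in the cytoplasm, and Shp2 (gene Ptpn11) is a phosphatase in the Ras-Erk pathway. The title of the study asks what the loss of both pathways does to circadian regulation and to liver cancer. The albumin promoter drives Cre in hepatocytes, so the other cells of the liver keep both genes, and the labels do not say whether the WT mice carried Cre.

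Each deposited value stands for a genotype with its 3 replicates pooled by Cuffdiff, in FPKM (fragments scaled by transcript length and library size) by that program's convention. No value per replicate was used, so no SD or interval is given and the depth is unknown. Calls are the authors' own: q under 0.05 in the deposited table, for a gene that reached 0.1 in 1 or both of the genotypes compared. The smallest q possible was 0.000955 in the liver table and 0.00048 in the hepatocyte table. Ikbkb stood at 15.7, 9.48, 14.2 and 6.31 FPKM in WT, IkkB KO, Shp2 KO, then Double KO liver, and at 17.3, 7.16, 15.1 and 5.29 in hepatocytes. Ptpn11 stood at 12.5, 10.1, 4.09 and 6.09 in liver and at 16.3, 14.5, 4.46 and 5.77 in hepatocytes, so both targeted genes were lowest in the genotypes labelled for them. Of 8 hepatocyte markers, Ttr, Apoc3, Cps1, Hnf4a, Cyp2e1 and Tat were high in every genotype of isolated hepatocytes (Ttr between 4469 and 8481 FPKM and Hnf4a between 165 and 194), with Cyp2e1 lower in IkkB KO than in WT (1026 against 2340, called). Serpina1a was listed at 0 in every genotype of both tables, and Apoa1 in IkkB KO hepatocytes and in WT and IkkB KO liver. Apoa1 was called lower in Shp2 KO than in WT hepatocytes (5770 against 16137). Apoc3 was called lower in Double KO liver (3688.5) than in WT liver (7857.5) and IkkB KO liver (9713.9). It was also called lower in Shp2 KO (4453.4) than in IkkB KO liver. Macrophage markers were also found in isolated hepatocytes and differed between genotypes, as given with each result they touch. The 2 tables were normalized separately, and levels are compared only within a table.

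Promoters of some members are shown first, since the classes share short sequences near their transcription starts. Of those shown, H2-K1 was called in no pair. All are RefSeq windows of 300 bases on GRCm38.p6, written 5′ to 3′ along the gene, with motif matches in capitals. Of the 52 members, 37 had a window, and 3 of them (H2-DMa, H2-K1 and H2-M9) had 2, which gave 40 windows. The class II windows shown are those of H2-Aa (chr17:34287774-34288073, minus strand), H2-Eb1 (chr17:34305617-34305916, plus strand) and H2-DMb1 (chr17:34152941-34153240, plus strand).
H2-Aa: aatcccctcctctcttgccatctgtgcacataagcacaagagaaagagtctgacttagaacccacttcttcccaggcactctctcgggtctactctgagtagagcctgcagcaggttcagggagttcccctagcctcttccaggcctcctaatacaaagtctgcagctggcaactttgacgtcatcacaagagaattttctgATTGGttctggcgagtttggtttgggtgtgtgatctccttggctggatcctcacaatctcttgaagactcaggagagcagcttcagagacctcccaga
H2-Eb1: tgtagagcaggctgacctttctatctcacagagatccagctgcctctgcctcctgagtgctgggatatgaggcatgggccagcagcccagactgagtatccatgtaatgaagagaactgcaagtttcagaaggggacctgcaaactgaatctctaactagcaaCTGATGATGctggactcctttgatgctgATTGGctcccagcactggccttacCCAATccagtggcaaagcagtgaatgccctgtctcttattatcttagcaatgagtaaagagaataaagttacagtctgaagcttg
H2-DMb1: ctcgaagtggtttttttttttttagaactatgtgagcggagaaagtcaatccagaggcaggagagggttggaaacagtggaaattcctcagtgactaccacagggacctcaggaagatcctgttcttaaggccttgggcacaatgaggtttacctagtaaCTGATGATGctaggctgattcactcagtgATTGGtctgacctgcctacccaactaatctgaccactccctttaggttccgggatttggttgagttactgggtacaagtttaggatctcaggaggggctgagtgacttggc
A Y box (CCAAT, or ATTGG on the other strand) was present in 8 of 9 class II windows, against 37.4% of all 32851 RefSeq windows. It stood at -48 in H2-Aa, -59 in H2-Eb1 and -61 in H2-DMb1, counted from the transcript start. Of the 2 windows of H2-DMa, which is not shown and rose with these genes, 1 held a Y box, at -198, and 1 held none. H2-Eb1 and H2-DMb1 also share the stretch CTGATGATG (CATCATCAG on the other strand), at -87 and -90, which 0.527% of all windows hold. That stretch was searched for after these promoters had been read, so its presence in them is no independent observation.

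Among class I windows, H2-Q7 (chr17:35438905-35439204, plus strand) and H2-K1 (chr17:34000284-34000583, minus strand) are shown for the NF-κB core GGGGANTCC (GGANTCCCC on the other strand). In H2-K1 the matches on the 2 strands overlap.
H2-Q7: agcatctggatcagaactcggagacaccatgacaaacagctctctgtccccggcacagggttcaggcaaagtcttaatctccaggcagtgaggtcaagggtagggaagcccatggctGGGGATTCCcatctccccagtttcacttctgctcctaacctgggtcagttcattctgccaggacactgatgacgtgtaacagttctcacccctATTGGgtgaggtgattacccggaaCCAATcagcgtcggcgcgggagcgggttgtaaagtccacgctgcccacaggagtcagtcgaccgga
H2-K1: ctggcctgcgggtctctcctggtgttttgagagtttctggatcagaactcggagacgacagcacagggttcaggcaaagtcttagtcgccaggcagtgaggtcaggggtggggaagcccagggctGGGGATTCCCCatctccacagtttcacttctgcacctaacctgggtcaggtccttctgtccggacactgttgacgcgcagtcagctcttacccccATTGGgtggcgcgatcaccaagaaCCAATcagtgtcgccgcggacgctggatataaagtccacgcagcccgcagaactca
This core was found in 6 of 25 class I windows (both of H2-K1, and those of H2-D1, H2-Q6, H2-Q7 and H2-Q10), in 0 of 9 class II windows and in 0 of 5 processing windows, against 1.19% of all windows. The Y box was found in 22 of the 25 class I windows. Tap1 (chr17:34187306-34187605, plus strand) and Psmb9 (chr17:34187281-34187580, minus strand) start 226 bases apart on opposite strands, and their windows share 275 bases, so the sequence of Tap1 shows nearly all of both.
Tap1: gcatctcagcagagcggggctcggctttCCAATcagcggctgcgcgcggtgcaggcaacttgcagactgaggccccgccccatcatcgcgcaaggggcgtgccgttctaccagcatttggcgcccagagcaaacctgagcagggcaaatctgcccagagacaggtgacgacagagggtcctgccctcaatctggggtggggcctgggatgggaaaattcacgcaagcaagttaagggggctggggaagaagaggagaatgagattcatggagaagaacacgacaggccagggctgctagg
Interferon-related sequences were counted in the same windows. GAAANNGAA (TTCNNTTTC) was in 3 of 25 class I, 0 of 9 class II and 0 of 5 processing windows, against 8.56% of all. TTCNNNGAA, which reads the same on both strands, was in 2, 1 and 1 of these windows, against 8.30% of all. Both sets of counts are near the share over all windows, for these exact patterns. The stretch tttcacttc, present in the H2-Q7 and H2-K1 windows above, matches neither pattern and was not counted. The counts thus do not show that class I windows lack other interferon-related sequences. The X1 core GCAACAG, on either strand, was in 1 class I window and in no class II or processing window, against 5.48% of all. Only these exact letters were counted. In H2-Eb1 the near form gcaaCTG, which runs into the CTGATGATG stretch, was thus left out, and the count does not show that class II windows lack near forms. A match is a run of letters and does not show that a factor binds there.

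In whole liver, members of all 3 classes rose in IkkB KO. Of 38 members tested in IkkB KO against WT, 23 rose and 0 fell, where 2.37% of all 12484 genes tested rose and 2.17% fell. The calls fell on 11 of 21 class I, 7 of 10 class II and 5 of 6 processing genes. The median log2 difference, computed as log2(FPKM + 1), was 0.65 for class I, 0.90 for class II and 0.78 for processing genes, beside -0.01 over all genes tested. In Shp2 KO nearly all members were uncalled: 1 of 37 rose (H2-Q2) and 1 fell (Tap1) against WT, where 5.23% of all genes rose and 4.10% fell. Between the single knockouts, 20 of 36 members were lower and 0 higher in Shp2 KO than in IkkB KO, where 4.84% of all genes were lower and 5.43% higher. At an unadjusted p under 0.05, 26 members were higher and 0 lower in IkkB KO than in WT, and 23 were lower and 0 higher in Shp2 KO than in IkkB KO.

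The double knockout split the classes in whole liver. Against WT, 9 of 38 members rose and 0 fell, where 11.5% of all genes rose and 6.62% fell. Of these 9, 7 were class II genes, out of 10 tested, and 0 of 6 processing genes were called (at an unadjusted p under 0.05, 1 was higher and 2 were lower). Against IkkB KO, 12 of 37 members fell and 0 rose, where 7.50% of all genes fell and 11.5% rose, and the 12 were 7 class I and 5 processing genes. Of the 10 class II genes tested, Cuffdiff called 0 between Double KO and IkkB KO, and 0 had an unadjusted p under 0.05. Against Shp2 KO, 9 of 37 members rose, 7 of them class II, and 1 fell, where 7.94% of all genes rose and 2.83% fell. At an unadjusted p under 0.05, 3 members were lower in Double KO than in WT and 0 were higher in Double KO than in IkkB KO.

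In isolated hepatocytes the class II genes parted from whole liver in the double knockout. In IkkB KO against WT, 15 of 35 members rose and 0 fell, where 7.60% of all genes rose and 1.81% fell, and the 15 held 7 of 7 class II, 4 of 6 processing and 4 of 21 class I genes. The class II median log2 difference was 2.28, beside 0.0015 over all genes. The 7 class II genes include Ciita, tested in hepatocytes only in the 2 pairs that hold IkkB KO, where its level was highest. With a value of at least 1 required, Ciita dropped out and 6 class II calls remained in IkkB KO against WT. In Double KO against IkkB KO, 19 of 35 members fell and 0 rose, where 5.62% of all genes fell and 5.75% rose, and all 7 class II genes tested were among the 19. Against WT, Double KO had 1 member higher and 3 lower of 34, where 9.04% of all genes rose and 4.56% fell. Shp2 KO had 0 members higher and 2 lower of 34, where 7.13% rose and 4.53% fell. In Double KO against Shp2 KO 1 of 34 members (H2-Q7) rose and 0 fell, where 3.44% of all genes rose and 3.31% fell. At an unadjusted p under 0.05, 0 members were lower in IkkB KO than in WT, 0 were higher in Double KO than in IkkB KO, 3 were higher in Shp2 KO than in WT, and 1 was lower in Double KO than in Shp2 KO. Whether a genotype's effect differed between whole liver and hepatocytes was not tested, since the tables hold no comparison across them.

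**Figure D1:**
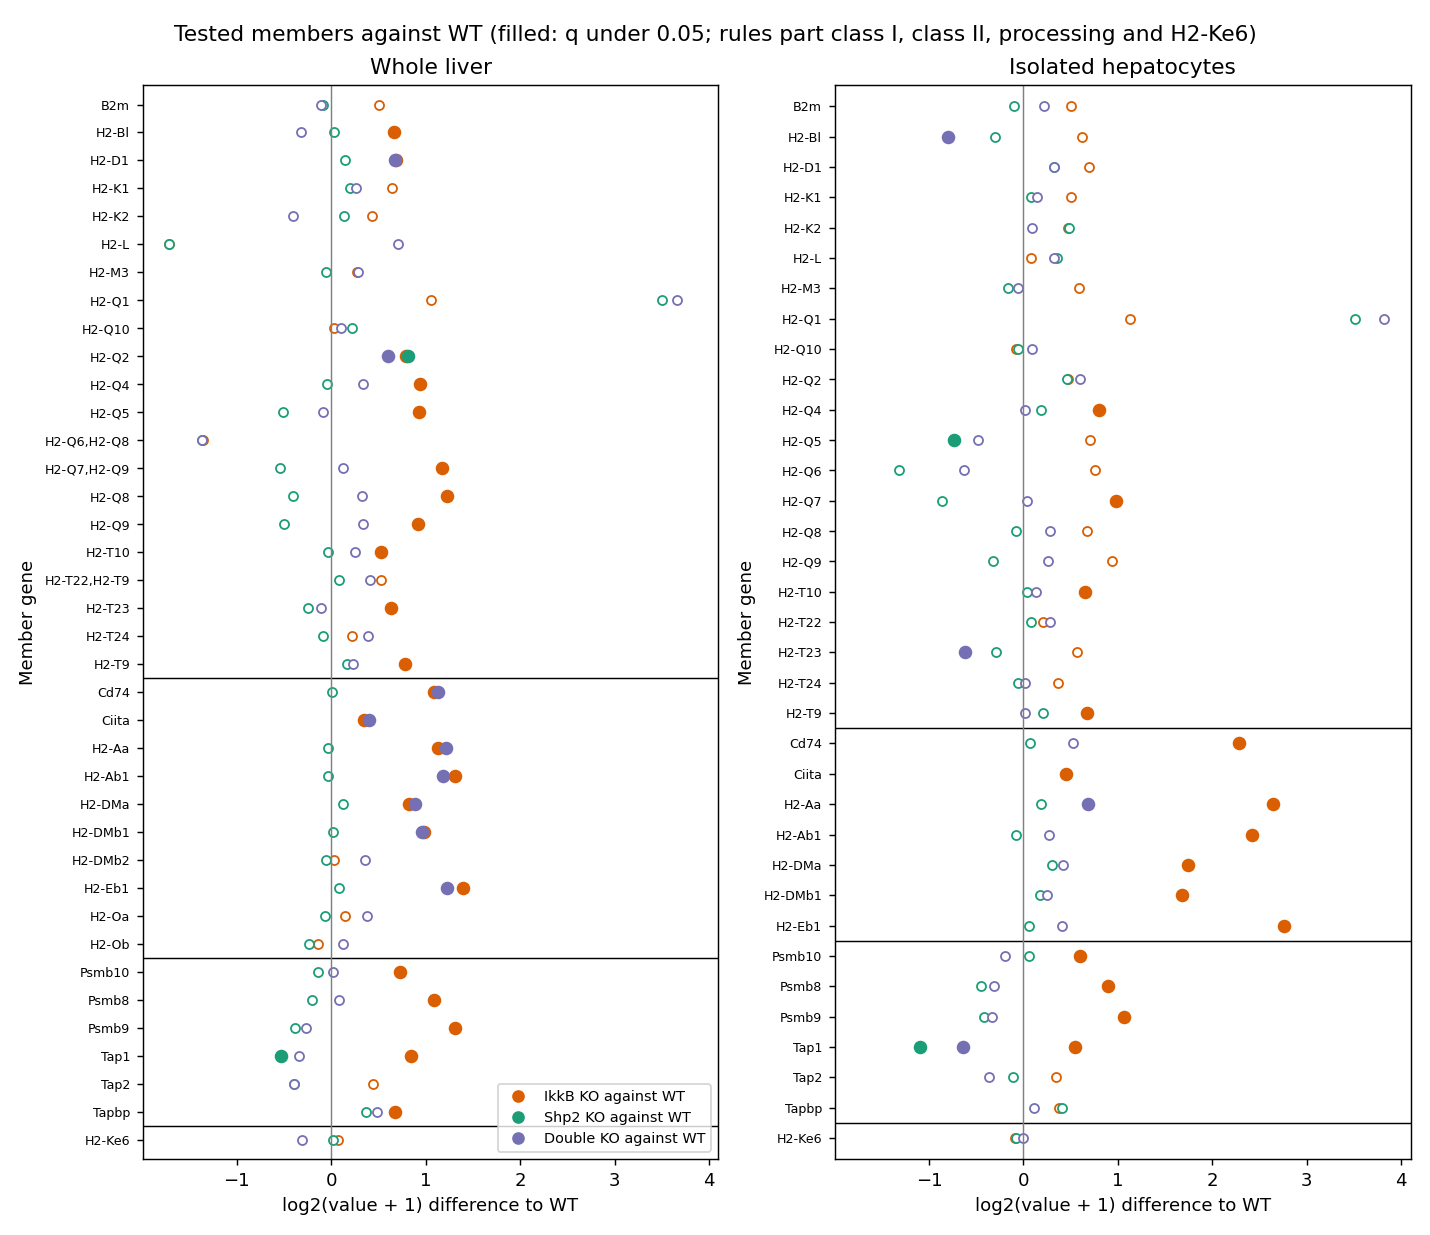
Log2 difference, as log2(FPKM + 1), of each tested member against WT in whole liver and isolated hepatocytes, with members on the vertical axis grouped by class and 1 point per knockout genotype, filled where called. In liver the IkkB KO and Double KO points of Cd74, H2-Aa, H2-Ab1 and H2-Eb1 lie together between 1.08 and 1.39, while in hepatocytes the IkkB KO points of H2-Aa, H2-Ab1 and H2-Eb1 stand at 2.64, 2.42 and 2.76 and the Double KO points lie below 1.

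The class II chains rose in IkkB KO in both tables. H2-Aa, the alpha chain of I-A, was at 44.3 FPKM in WT liver, at 98.1 with IkkB lost, at 43.1 with Shp2 lost and at 104 with both lost. In hepatocytes it was at 13.2, 87.9, 15.2 and 21.9 in the same order. In liver 2 genotypes were high and 2 low, and in hepatocytes IkkB KO stood alone. The rise in IkkB KO was 2.21-fold in liver (q = 0.000955) and 6.65-fold in hepatocytes (q = 0.00048), and in Double KO 2.36-fold in liver (q = 0.000955) and 1.66-fold in hepatocytes (q = 0.0278), in the authors' deposited table for each. The hepatocyte Double KO call was lost when the p-values were adjusted within that comparison alone. Double KO hepatocytes had 0.249 times the H2-Aa of IkkB KO hepatocytes (q = 0.00048 in the authors' deposited table).

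H2-Ab1, the beta chain of I-A, was at 33.5, 84.3, 32.6 and 77.2 FPKM in WT, IkkB KO, Shp2 KO, then Double KO liver. Its hepatocyte values were 15.4, 86.7, 14.5 and 18.8. H2-Eb1, the beta chain of I-E, was at 20.3, 55.0, 21.6 and 48.9 in liver and at 6.91, 52.5, 7.23 and 9.52 in hepatocytes. Both genes followed H2-Aa, except that neither was called in Double KO hepatocytes against WT (ratios 1.22 and 1.38, q = 0.499 and 0.212 in the authors' deposited table). In IkkB KO hepatocytes H2-Eb1 had the largest fold of any member called there, 7.60 (q = 0.00048 in the authors' deposited table). H2-Ea-ps, listed as a pseudogene of the alpha chain of I-E, was listed at 0 in every genotype of both tables.

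The invariant chain and the peptide exchange factors moved with the chains. Cd74, which guides class II molecules to the endosome, was at 90.6, 193, 91.3 and 199 FPKM in WT, IkkB KO, Shp2 KO, then Double KO liver. In hepatocytes it was at 30.8, 153, 32.2 and 44.6. It rose 2.13-fold in IkkB KO and 2.20-fold in Double KO liver (q = 0.000955 for both in the authors' deposited table), and 4.97-fold in IkkB KO hepatocytes (q = 0.00048). In Double KO hepatocytes its ratio to WT was 1.45 without a call (q = 0.095 in the authors' deposited table). H2-DMa and H2-DMb1, the chains of H2-DM, were low. H2-DMa went from 3.18 in WT to 6.37 in IkkB KO and 6.70 in Double KO liver, and from 1.15 to 6.22 and 1.89 in hepatocytes. H2-DMb1 went from 2.68 to 6.26 and 6.18 in liver, and from 1.07 to 5.61 and 1.47 in hepatocytes. All 4 of the liver differences were called, as were the 2 of IkkB KO hepatocytes.

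Ciita, which had no value of 1 or more and is named here for its role after its values were seen, was at 0.239, 0.574, 0.224 and 0.635 FPKM in liver. In hepatocytes it was at 0.122, 0.529, 0.099 and 0.166. It rose 2.40-fold in IkkB KO liver (q = 0.00785), 2.66-fold in Double KO liver (q = 0.00175) and 4.35-fold in IkkB KO hepatocytes (q = 0.00354) in the authors' deposited table. Ciita was tested in hepatocytes only in the 2 pairs that hold IkkB KO, so the 7 class II genes tested there include 1 that entered through its level in that genotype. The remaining class II members were near the floor. H2-Oa, H2-Ob and H2-DMb2, whose products form or resemble the H2-O and H2-DM heterodimers, lay between 0.399 and 0.963 FPKM in liver. They were called in no liver pair and were not tested in hepatocytes. H2-Eb2 stayed below 0.1 in both tables.

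**Figure D2:**
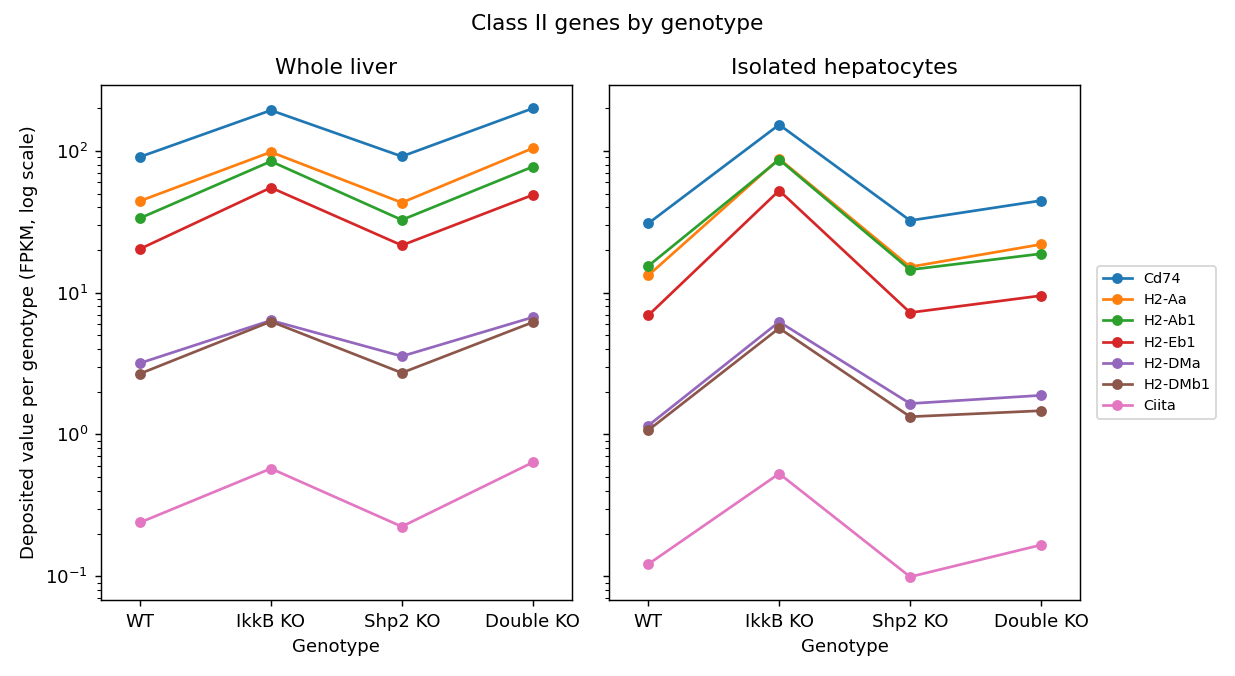
FPKM on a log axis of 7 class II genes in the 4 genotypes, 1 point per genotype, with lines that join the points of a gene, in whole liver and isolated hepatocytes. Cd74 stands at 193 in IkkB KO and 199 in Double KO liver, but at 153 and 44.6 in the same genotypes of isolated hepatocytes.

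Markers of other liver cells moved as well, and in bulk RNA fewer cells of a type and less RNA per cell cannot be told apart. Summed over its 12 genes, class II was at 197, 446, 196 and 446 FPKM in WT, IkkB KO, Shp2 KO, then Double KO liver, and at 68.9, 393, 72.4 and 98.7 in hepatocytes. The summed level of 11 macrophage markers was 247, 336, 332 and 663 in liver and 102, 311, 245 and 310 in hepatocytes. In hepatocytes 11 of 11 macrophage markers rose in IkkB KO and in Double KO and 10 rose in Shp2 KO, where 7.60%, 9.04% and 7.13% of all genes rose. Their sum was 311 in IkkB KO and 310 in Double KO, where the class II sum was 393 and 98.7. Between these 2 genotypes 1 of 11 macrophage markers (Marco) fell and 0 rose, at unadjusted p under 0.05 as well. In liver 2 of 11 rose in IkkB KO (2.37% of all genes did) and 11 of 11 in Double KO (11.5% of all did), where class II was level with IkkB KO. In Shp2 KO liver, where class II was level with WT, 3 of 11 rose (Marco, C1qa and C1qb), and 5.23% of all genes did. At an unadjusted p under 0.05, 5 were higher in IkkB KO and 7 in Shp2 KO liver.

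In hepatocytes the sums of dendritic, lymphocyte, stellate and endothelial markers were also highest in IkkB KO. The sum of 9 dendritic cell markers was 2.22, 5.88, 2.77 and 2.97 FPKM in WT, IkkB KO, Shp2 KO, then Double KO hepatocytes, with Cd209a at 0 in WT and Shp2 KO. Of 3 dendritic markers tested there, 2 (Batf3 and Clec9a) rose in IkkB KO, where 7.60% of all genes rose. Batf3 and Clec9a fell again in Double KO against IkkB KO, where 5.62% of all genes fell. The sum of 7 B cell markers was 0.408, 1.22, 0.641 and 0.636, with Fcmr at 0 in WT and Pax5 at 0 in Shp2 KO, and 1 or 0 of them was tested in each hepatocyte pair. The sum of 11 T and NK cell markers was 0.838, 3.06, 1.29 and 0.948, with Ncr1 at 0 in WT and Shp2 KO. Each of these sums was lower in Double KO than in IkkB KO. Of 4 T and NK cell markers tested in IkkB KO against WT, 0 were called (2 were higher at an unadjusted p under 0.05). Cd4 was at 0.423, 0.356, 0.102 and 0.104 FPKM. It fell in Shp2 KO and in Double KO against WT, where 4.53% and 4.56% of all genes fell. In Double KO against IkkB KO 2 of 4 T and NK cell markers fell (Cd4 and Nkg7). The sum of 6 stellate cell markers was 26.0, 104, 51.1 and 55.9, and that of 7 endothelial markers 33.3, 67.9, 38.1 and 63.2. In IkkB KO 6 of 6 stellate and 7 of 7 endothelial markers rose against WT, where 7.60% of all genes rose. In Double KO against IkkB KO 4 of 6 stellate markers fell (Dcn, Reln, Lrat and Des) and 1 rose (Col1a1). Of 7 endothelial markers 1 fell there (Lyve1) and 0 rose, where 5.62% of all genes fell and 5.75% rose.

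In liver the same lists were summed. The dendritic sum was 5.18, 6.64, 5.57 and 8.91 FPKM, the B cell sum 5.59, 4.86, 3.48 and 6.20, and the T and NK cell sum 4.98, 9.90, 3.16 and 6.79 in WT, IkkB KO, Shp2 KO, then Double KO. In IkkB KO liver 2.37% of all genes rose against WT and 2.17% fell. There 0 of 5 dendritic markers tested were called (1 was higher at an unadjusted p under 0.05). Of 6 B cell markers 0 were called (0 at that p), and 2 of 8 T and NK cell markers rose (Gzmb and Cd8a). In Double KO liver, where class II was also high, 11.5% of all genes rose against WT and 6.62% fell. There 3 of 8 dendritic markers tested rose (Itgax, Batf3 and Siglech). Only 5 were tested in each liver pair without Double KO, so some were tested only in pairs that hold it, and the 2 counts are not like for like. Of 6 B cell markers 0 were called (1 was higher at an unadjusted p under 0.05). Of 7 T and NK cell markers 0 were called (1 was higher and 1 lower at that p). The stellate sum was 75.2, 80.1, 91.4 and 153, and the endothelial sum 72.8, 70.6, 50.8 and 72.2. The part of other cell types in the class II differences was not tested.

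**Figure D3:**
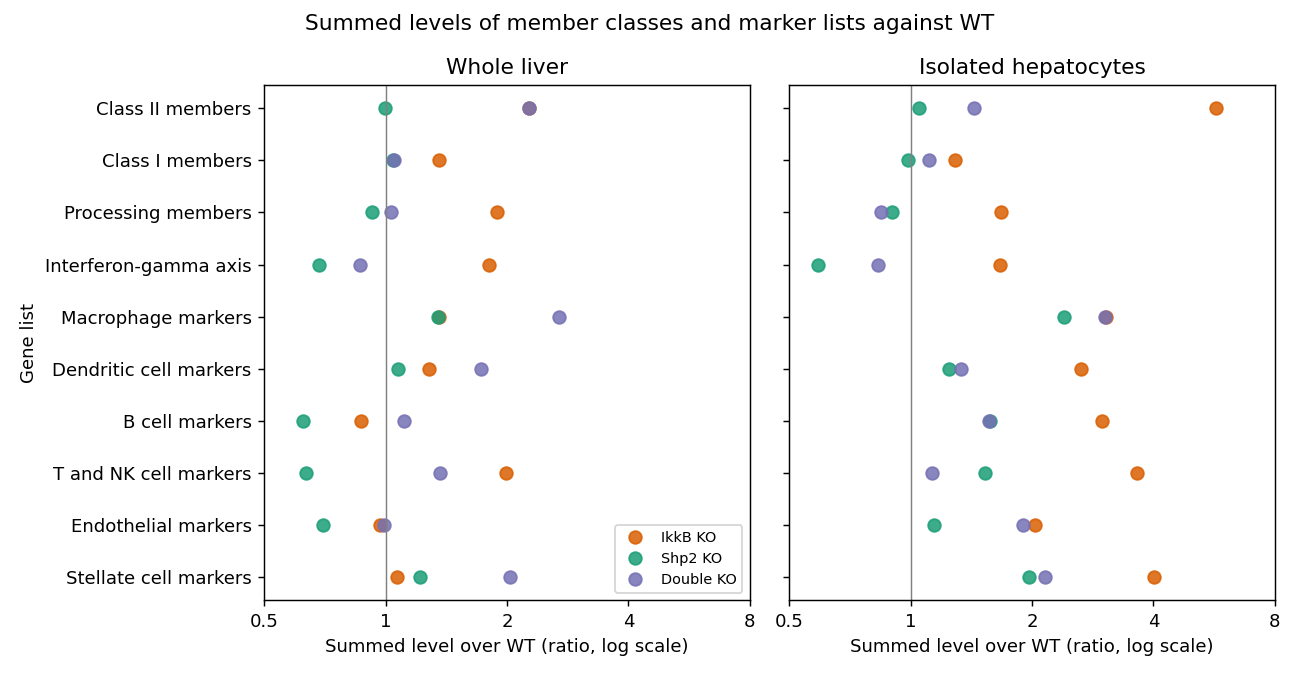
Ratio to WT, on a log axis, of the summed FPKM of each MHC class and each list of cell markers or interferon-gamma genes, 1 point per knockout genotype, in whole liver and isolated hepatocytes. In hepatocytes the macrophage sum is 3.05 times WT in IkkB KO and 3.04 times in Double KO, while the class II sum is 5.71 and 1.43 times WT.

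The immunoproteasome subunits rose in IkkB KO and not in Double KO, in both tables. Psmb9 was at 33.7 FPKM in WT liver, at 84.8 with IkkB lost, at 25.5 with Shp2 lost and at 27.9 with both lost. In hepatocytes it was at 51.3, 108, 38.1 and 40.6. IkkB KO was the highest of the 4 in each, and Double KO was below WT without a call. Psmb9 rose 2.52-fold in liver (q = 0.000955) and 2.12-fold in hepatocytes (q = 0.00048), and Double KO held 0.328 and 0.374 times the IkkB KO level (q = 0.000955 and 0.00048), in the authors' deposited table.

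Psmb8 was at 36.2, 78.2, 31.2 and 38.4 FPKM in liver and at 49.6, 93.3, 36.0 and 39.7 in hepatocytes. Psmb10 was at 47.9, 79.9, 43.4 and 48.7 in liver and at 51.7, 78.6, 53.9 and 45.1 in hepatocytes. In both genes IkkB KO alone stood above the other 3 genotypes. Psmb8 rose 2.16-fold in liver and 1.88-fold in hepatocytes, and Psmb10 rose 1.67-fold and 1.52-fold (q = 0.0216 for Psmb10 in hepatocytes, the smallest possible for the others, in the authors' deposited table). None of the constitutive subunits that they replace was called higher: of Psmb5, Psmb6 and Psmb7, 0 of 3 were called in IkkB KO liver (0 at an unadjusted p under 0.05), and in IkkB KO hepatocytes Psmb5 fell. Psmb5 was at 74.6, 46.4, 89.1 and 75.9 FPKM in hepatocytes and at 95.1, 90.7, 130 and 60.7 in liver. The ratio of Psmb9 to Psmb6 was 0.182 in WT and 0.451 in IkkB KO liver, and 0.349 and 0.819 in hepatocytes.

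The transporter genes were highest in IkkB KO in both tables. Tap1, which shares most of its promoter window with Psmb9, was at 13.7, 25.3, 9.19 and 10.6 FPKM in WT, IkkB KO, Shp2 KO, then Double KO liver. In hepatocytes it was at 18.6, 27.6, 8.22 and 11.6. It was above WT in IkkB KO only and below WT in both genotypes that lack Shp2. Tap1 rose in IkkB KO by 1.85-fold in liver (q = 0.000955) and 1.48-fold in hepatocytes (q = 0.0452) in the authors' deposited table. It fell in Shp2 KO to 0.671 times WT in liver (q = 0.017) and 0.441 times in hepatocytes (q = 0.00048), and in Double KO hepatocytes to 0.623 times (q = 0.0125), in the authors' deposited table. In Double KO liver Tap1 was at 10.6 against 13.7 FPKM without a call.

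Tap2, the other chain of the transporter, was at 16.7, 23.1, 12.5 and 12.5 FPKM in liver and at 16.9, 21.8, 15.6 and 13.0 in hepatocytes. It missed the threshold in IkkB KO against WT in both tables (q = 0.0833 and 0.206), and fell in Double KO against IkkB KO in both (0.543 and 0.594 times, q = 0.000955 and 0.0023), in the authors' deposited table. Tapbp was at 40.2, 64.6, 52.4 and 56.6 in liver and at 39.8, 51.9, 53.0 and 43.0 in hepatocytes. It was the 1 processing gene not called in Double KO against IkkB KO in either table. Tapbp rose 1.61-fold in IkkB KO liver (q = 0.0056 in the authors' deposited table), and its Double KO liver ratio of 1.41 had q = 0.0674. That ratio passed the threshold when p-values were adjusted within the comparison alone, while the hepatocyte IkkB KO calls of Psmb10 and Tap1 were lost.

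**Figure D4:**
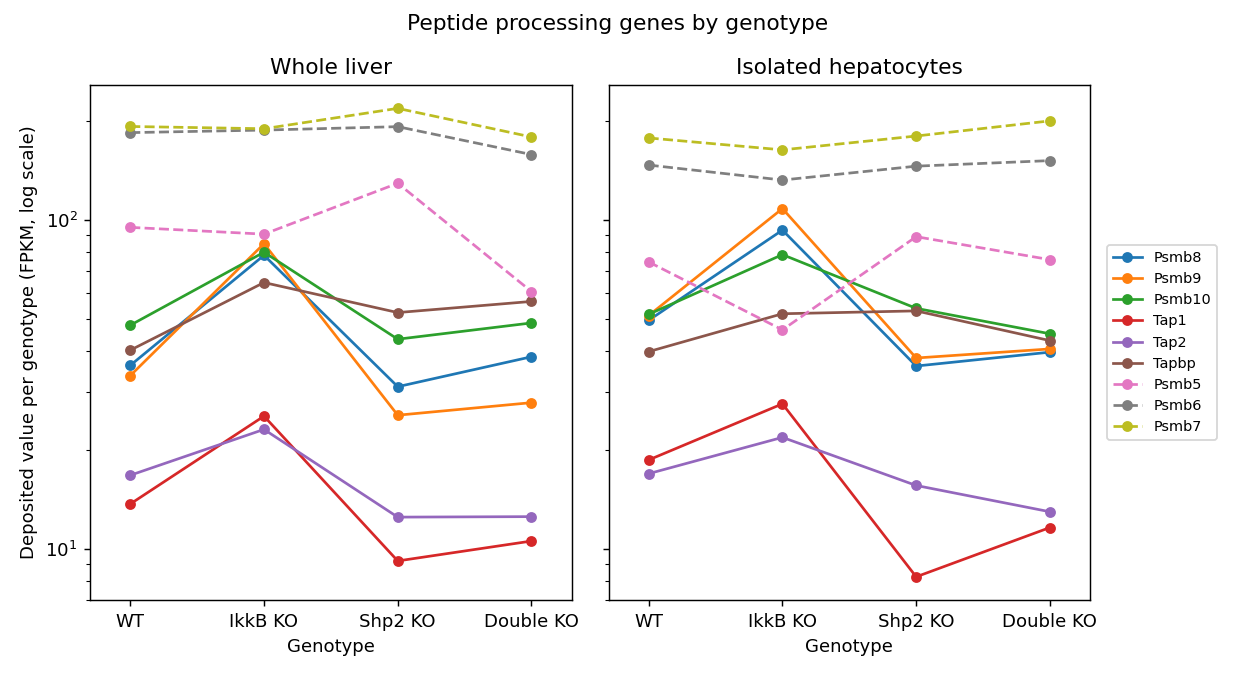
FPKM on a log axis of the 6 processing genes (solid lines) and of the constitutive proteasome subunits Psmb5, Psmb6 and Psmb7 (dashed lines), 1 point per genotype, in whole liver and isolated hepatocytes. Lines join the points of a gene and imply no order of genotypes. Psmb9 stands at 84.8 in IkkB KO and 27.9 in Double KO liver, and Tap1 at 9.19 in Shp2 KO liver against 13.7 in WT.

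B2m, H2-K1 and H2-Q10, the most abundant class I genes, were high in every genotype and were called in no pair. B2m, the shared light chain, was at 3257, 4616, 3066 and 3010 FPKM in WT, IkkB KO, Shp2 KO, then Double KO liver. In hepatocytes it was at 2615, 3707, 2440 and 3043. Its ratio in IkkB KO was 1.42 in both tables and it was not called (q = 0.35 and 0.282 in the authors' deposited table). H2-K1 was at 996, 1560, 1143 and 1191 in liver and at 1365, 1935, 1439 and 1504 in hepatocytes, with ratios of 1.57 and 1.42 in IkkB KO and no call (q = 0.168 and 0.31 in the authors' deposited table). H2-Q10, a secreted class I protein made mainly by the liver, was the most abundant heavy chain, at 1792, 1823, 2088 and 1930 in liver and 2234, 2119, 2141 and 2383 in hepatocytes. IkkB KO was the highest genotype for B2m and H2-K1 in both tables, and for H2-Q10 in neither.

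H2-D1 was the classical heavy chain with a call. It was at 325, 521, 360 and 519 FPKM in liver, 2 genotypes high and 2 low, and at 381, 618, 476 and 478 in hepatocytes. Its rises in IkkB KO and Double KO liver were 1.61-fold (q = 0.0417) and 1.60-fold (q = 0.0471), and its hepatocyte ratio of 1.62 in IkkB KO missed the threshold (q = 0.0662), in the authors' deposited table. The IkkB KO liver call was lost when p-values were adjusted within the comparison alone.

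H2-L was listed at 2.29, 0, 0 and 4.37 in liver and at 101, 106, 128 and 126 in hepatocytes. The entries H2-D1 and H2-L are near-identical in sequence and reads can be split between them, so the values of both are uncertain. Whether the strain used carries a separate H2-L gene was not examined, and the H2-L values do not show that it does.

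The Qa and Tla genes, which encode the nonclassical class I heavy chains, held most of the class I calls. H2-Q4 was at 25.8, 50.5, 24.9 and 32.7 FPKM in liver and at 29.4, 52.1, 33.7 and 29.8 in hepatocytes. It rose in IkkB KO by 1.96-fold in liver (q = 0.000955) and 1.77-fold in hepatocytes (q = 0.00089) in the authors' deposited table. H2-T23, which encodes Qa-1, the ligand of an inhibitory receptor of NK and CD8 T cells, was at 164, 254, 139 and 153 in liver and at 258, 382, 211 and 168 in hepatocytes. H2-T23 rose 1.55-fold in IkkB KO liver (q = 0.0274), missed the threshold in IkkB KO hepatocytes (1.48-fold, q = 0.0534), and fell in Double KO hepatocytes to 0.65 times WT (q = 0.021), in the authors' deposited table. In Double KO against IkkB KO both genes fell in both tables. H2-T23 was thus lower in Double KO than in WT in hepatocytes, where H2-Q4 was level with WT.

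H2-Q7,H2-Q9, joined in the liver table, was at 29.4, 67.4, 19.8 and 32.2 FPKM, and H2-Q7 in hepatocytes was at 42.0, 84.0, 22.6 and 43.2. The IkkB KO rise was 2.30-fold in liver (q = 0.000955) and 2.00-fold in hepatocytes (q = 0.0212) in the authors' deposited table, and the hepatocyte call was lost under adjustment within the comparison. H2-Q8 was at 9.66, 24.0, 7.07 and 12.4 in liver, and H2-Q5 at 2.84, 6.32, 1.69 and 2.62 in liver and 3.16, 5.80, 1.50 and 1.98 in hepatocytes. In each of these genes Shp2 KO was the lowest genotype and IkkB KO the highest. H2-Q5 fell in Shp2 KO hepatocytes (0.475 times, q = 0.0402 in the authors' deposited table), a call lost under adjustment within the comparison.

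Further class I genes were also highest in IkkB KO, except H2-K2 in hepatocytes, with different genotypes lowest. H2-Q9 was at 12.9, 25.2, 8.78 and 16.5 FPKM in liver, H2-T9 at 32.6, 56.5, 36.8 and 38.4, and H2-T10 at 0.955, 1.81, 0.903 and 1.33. H2-T9 and H2-T10 rose in IkkB KO in both tables, from 49.4 to 79.2 and from 0.871 to 1.93 FPKM in hepatocytes. H2-Bl was at 1.63, 3.17, 1.68 and 1.12 in liver and at 1.65, 3.07, 1.15 and 0.523 in hepatocytes, where it fell in Double KO to 0.316 times WT (q = 0.00815 in the authors' deposited table). H2-K2 fell in Double KO liver against IkkB KO (6.79 against 12.9 FPKM) and against Shp2 KO (10.3 FPKM). In hepatocytes it was at 5.18, 7.57, 7.60 and 5.57, highest in Shp2 KO, and was called in no pair. In IkkB KO liver 5 of the 11 class I calls (H2-Bl, H2-D1, H2-Q9, H2-T23 and H2-T9) were lost when p-values were adjusted within the comparison. All these genes have near-identical copies, and values of single copies are uncertain.

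H2-Q1 and H2-Q2 had an order of their own. H2-Q1 was at 1.45, 4.11, 26.8 and 29.9 FPKM in WT, IkkB KO, Shp2 KO, then Double KO liver, and at 0.814, 2.98, 19.6 and 24.6 in hepatocytes. Both genotypes that lack Shp2 were high in both tables, yet no pair was called (Shp2 KO liver q = 0.0931, Double KO liver q = 0.227, Double KO hepatocytes q = 0.0926, in the authors' deposited table). H2-Q2 was at 0.330, 1.30, 1.34 and 1.01 in liver, where all 3 knockouts were called higher than WT, and at 0.515, 1.10, 1.09 and 1.30 in hepatocytes, where none was. H2-Q6,H2-Q8, joined in the liver table, was at 1.58 in WT and below 0.01 in the 3 knockouts, and H2-Q6 in hepatocytes was at 8.90, 15.7, 2.98 and 5.38, all uncalled against WT. The other class I members were H2-M genes, at 0 or below 0.3 FPKM except H2-M3 (1.47 to 3.15 over both tables, uncalled), and H2-T3, H2-T24 and H2-T22, also uncalled. In all, 9 members in liver and 8 in hepatocytes were listed at 0 in all 4 genotypes, and 14 and 17 were never tested. H2-Ke6, which encodes an enzyme of fatty acid and steroid metabolism, was at 91.8, 96.7, 93.0 and 74.1 in liver and 92.4, 86.9, 87.2 and 92.4 in hepatocytes and was called in no pair.

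Genes of the interferon-gamma axis, like the processing genes, had their highest sum in IkkB KO in both tables. Their sum over 17 genes was 276, 498, 189 and 239 FPKM in WT, IkkB KO, Shp2 KO, then Double KO liver and 346, 575, 203 and 287 in hepatocytes, beside 188, 356, 174 and 195 and 228, 382, 205 and 193 for the 6 processing genes. Of 16 tested, 9 rose and 0 fell in IkkB KO liver (2.37% of all genes rose), and 6 rose and 0 fell in IkkB KO hepatocytes (7.60% of all rose). In Double KO against IkkB KO 8 fell and 1 rose in liver (7.50% of all fell), and 7 fell and 0 rose in hepatocytes (5.62% of all fell). In Shp2 KO against WT 3 fell in liver (4.10% of all) and 7 in hepatocytes (4.53% of all), and 0 rose, also at an unadjusted p under 0.05. In Double KO against WT 2 rose in liver (Irf8 and Gbp2) and 1 fell (Iigp1), where 11.5% of all genes rose and 6.62% fell. There 13 of the 16 tested were above WT although the sum was lower, with Iigp1 at 120 FPKM in WT and 62.7 in Double KO. In Double KO hepatocytes 0 rose and 1 fell (Gbp3), where 9.04% of all genes rose and 4.56% fell. Igtp, an interferon-induced GTPase, was at 20.5, 92.2, 23.4 and 26.8 in liver and 40.4, 88.9, 17.4 and 29.1 in hepatocytes. Ifng itself was at or below 0.104 FPKM in every genotype and was not tested.

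Further genes of peptide trimming, loading and class II trafficking were taken as a list of 24. In IkkB KO liver 2 of 24 rose, where 2.37% of all genes did, namely Nlrc5, the coactivator of class I genes (2.79, 5.91, 2.12 and 3.62 FPKM in the 4 genotypes), and Ctss, which encodes the protease that trims the invariant chain (23.8, 35.4, 31.2 and 74.3). In IkkB KO hepatocytes 4 of 24 rose, where 7.60% of all genes did: Ctss, March1, Lgmn and Ifi30. In liver and in hepatocytes, 0 of the 24 fell in IkkB KO, and 1 was lower at an unadjusted p under 0.05. Nlrc5 fell in Double KO against IkkB KO in both tables (q = 0.00442 and 0.00162 in the authors' deposited table). Ctss was at 8.68, 33.0, 21.4 and 28.0 in hepatocytes and rose in all 3 knockouts against WT there. In Double KO hepatocytes Ctss was thus near its IkkB KO level, where H2-Aa was at 21.9 against 87.9.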

How the data were processed

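The authors deposited 1 Cuffdiff table for whole liver (6 pairs of genotypes) and 1 for isolated hepatocytes (5 pairs). The pair Shp2 KO against IkkB KO in hepatocytes was not analysed here. Cuffdiff, FastQC and mm9 are named in the submitters' processing notes. Not given in the sources used here are the aligner, annotation, strand setting and program versions. The expression values deposited by the authors have no unit in the header and are FPKM by the program's convention, 1 value for the 3 replicates of a genotype. The deposited log2 fold changes are log2 ratios of these values, and the deposited test statistic, a score, was not used. The p-values and q-values are the authors' own. Liver q-values could be recomputed by Benjamini-Hochberg over all 6 pairs (largest difference 5.27e-07), and hepatocyte q-values could not (0.284), so calls of the tables may be unequally strict. Pooling leaves no spread to compute from, and Cuffdiff divides reads among near-identical copies, which touches most class I members.

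Python 3.11.15 ran the scripts, with pandas 2.3.3, numpy 2.4.6, scipy 1.17.1 and, for the plots, matplotlib 3.10.9. Genes that Cuffdiff tested and that reached 0.1 in 1 or both genotypes entered counts and medians, and differences were taken as log2(FPKM + 1). Scripts were tested on simulated data. The members, the classes and the lists of other genes were chosen with earlier results of these data known. Members with a value of at least 1 in a genotype and a call in a pair are given with values, and the rest by range. Promoter sequences are from RefSeq on GRCm38.p6, a build other than that of the tables, matched by symbol. Alternatives were a q under 0.01, an absolute log2 difference of at least 1, adjustment within a comparison, no filter, a value of at least 1, a pseudocount of 0.1 and centring on the median.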

Additional observations from a re-analysis of the deposited data

How the results depend on the processing

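No paired analysis was possible because the tables hold 1 pooled value per genotype and no value per replicate, and for the same reason no replicate could be left out in turn. Of 117 member calls, 92 held at q under 0.01, 103 with p-values adjusted within the comparison, 117 without the filter on low values and 52 with an absolute log2 difference of at least 1. With a value of at least 1, 111 held and the other 6, all of Ciita, were not tested. The limit on the log2 difference left the following counts of members. In liver they were 8 in IkkB KO against WT, 0 in Shp2 KO against WT, 4 in Double KO against WT, 5 in Double KO against IkkB KO, 4 in Double KO against Shp2 KO and 11 in Shp2 KO against IkkB KO. In hepatocytes they were 7 in IkkB KO against WT, 1 in Shp2 KO against WT, 0 in Double KO against WT, 12 in Double KO against IkkB KO and 0 in Double KO against Shp2 KO. At q under 0.01 the count was 1 in Shp2 KO against WT in liver, and in hepatocytes 1 in Shp2 KO against WT, 1 in Double KO against WT and 0 in Double KO against Shp2 KO. With adjustment within the comparison, the hepatocyte counts were 1 in Shp2 KO against WT and 0 in Double KO against Shp2 KO. All other counts over all members stayed within 1.5 times. By class, at q under 0.01, the class I count of IkkB KO against WT went from 11 to 5 in liver and from 4 to 1 in hepatocytes, the processing count from 4 to 2 in hepatocytes, and the class I count of Double KO against WT from 2 to 0 in liver. No median changed sign with a call. The class II liver median moved to 1.04 with a pseudocount of 0.1 and to 1.11 with a value of at least 1 in IkkB KO against WT, and to 1.13 and 1.15 in Double KO against WT. With a pseudocount of 0.1 the hepatocyte medians moved to 0.73 for class I in IkkB KO against WT, and to -0.57 for class I and -1.87 for class II in Double KO against IkkB KO. Depth is unknown, so how far it limits the low members could not be judged.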

Other observations

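Genes that lie among the H2 genes without being members were counted as well. Between H2-K1 and H2-M2 in RefSeq gene order, 146 other genes were in the tables. In IkkB KO against WT, 4 of 83 tested in liver rose (Aif1, Hspa1a, Hspa1b and Ubd) and 2 fell (C4a and Cyp21a1), where 2.37% of all genes rose and 2.17% fell, with a median log2 difference of 0.06. In hepatocytes 9 of 79 rose and 1 fell, where 7.60% of all genes rose and 1.81% fell, with a median of -0.03. Aif1, a macrophage gene, was at 6.03, 11.5, 7.69 and 16.0 FPKM in WT, IkkB KO, Shp2 KO, then Double KO liver, and at 2.59, 10.1, 5.71 and 4.70 in hepatocytes. Ubd, which encodes an interferon-inducible ubiquitin-like protein, was at 0.672, 2.73, 4.69 and 3.68 in liver and at 0.659, 3.01, 9.18 and 2.03 in hepatocytes. C4a, a complement component with a near-identical copy, was at 34.5, 8.06, 4.75 and 2.30 in liver and at 13.3, 6.0, 1.03 and 1.84 in hepatocytes, and fell in all 3 knockouts against WT in both tables. Apom, which encodes an apolipoprotein, fell in both genotypes that lack Shp2, from 337 to 126 and 188 in liver and from 538 to 273 and 280 in hepatocytes.

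Hfe, a class I-like gene of iron metabolism that is no member, was higher in the genotypes that lack Shp2, at 22.8, 22.6, 36.4 and 34.3 FPKM in WT, IkkB KO, Shp2 KO, then Double KO liver and at 29.8, 28.0, 42.9 and 41.0 in hepatocytes. Against WT both genotypes were called in liver, and in hepatocytes Shp2 KO was called and Double KO was not.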
